A study of Gallus gallus with 15 samples.

Results

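HDAC11 (ENSGALG00000005092) and BRWD1 (ENSGALG00000016065) were followed as 2 chromatin genes out of 24356 genes counted in the chick hypothalamus. Both were chosen by their difference in counts between G3D and Control in these same libraries, so their levels and fold changes are given as a description, without a test. RNA of hypothalami from broiler chicks at day of hatch (DOH) was measured by bulk MARS-Seq, a 3′ end method in which a unique molecular identifier (UMI) marks every captured RNA. The 15 libraries came from G3D eggs, lit with green monochromatic light in the last 3 days of incubation only (4 libraries), Green eggs, lit with green light throughout incubation (3 libraries), White eggs, lit with white light throughout (4 libraries), and Control eggs, kept dark (4 libraries). The labels call the Green, White and Control chicks male and state no sex for G3D. The study's figure caption for these profiles calls the chicks male without singling out a group, and the sex of G3D was not checked here. Each library came from a single hypothalamic hemisphere of a chick and mixes all its cell types, so fewer cells of a type and less RNA per cell cannot be told apart.

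Histone tails carry acetyl groups on lysines, which acetyltransferases add, deacetylases remove and bromodomain proteins bind. HDAC11 is the only class IV histone deacetylase, a zinc-dependent enzyme of small size. In human cells it removes long fatty acyl groups from lysine far better than acetyl groups, and in mice it is abundant in brain, and its loss raises energy expenditure. BRWD1 is a reader rather than an eraser: it joins WD40 repeats to bromodomains and binds modified histone H3. In mice it is needed for the maturation of B cells and of germ cells. HDAC11 is on chromosome 12 and BRWD1 on chromosome 1 in the RefSeq annotation of the chicken genome GRCg7b.

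HDAC11 had 66 to 609 counts per library, and BRWD1 had 8 to 74, near the minimum used to filter low genes. Levels are given as counts per 1000000 counts of a library (CPM) after TMM scaling, which corrects for library size and composition. The libraries held between 4196251 and 7979031 total counts in G3D, 5898618 and 8205918 in Green, 3944530 and 8077895 in White, and 6066732 and 9501555 in Control. Replicates differed beyond counting error, and over the 21 pairs of libraries from the same group chi-square divided by its degrees of freedom was 12.8 to 30.8. Because counts come from 3′ ends, CPM is not divided by transcript length, and levels were compared between libraries for the same gene. Isoforms that end at other 3′ sites than those counted were not separated.

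In G3D, HDAC11 stood at 18.2, 19.6, 15.0 and 17.8 CPM in replicates 1, 5, 6 and 7. In Green it stood at 31.5, 37.0 and 15.4 CPM in replicates 2, 7 and 9. The G3D libraries were close together, whereas Green replicate 9 lay inside the G3D range and the other Green libraries lay above it. In White, HDAC11 reached 46.9, 83.2, 33.1 and 70.2 CPM in replicates 1, 3, 6 and 7. In Control it stood at 65.3, 45.5, 45.8 and 57.2 CPM in replicates 4, 5, 6 and 8. White held both the highest HDAC11 value of the 15 libraries and a value below every Control library.

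BRWD1 in G3D was 1.48, 1.53, 1.82 and 2.29 CPM in replicates 1, 5, 6 and 7, from 10, 12, 8 and 12 counts. In Green it was 5.80, 4.31 and 3.93 CPM in replicates 2, 7 and 9. Every G3D library was below every library of the other groups. In White, BRWD1 was 8.14, 4.37, 10.5 and 4.34 CPM in replicates 1, 3, 6 and 7. In Control it was 7.98, 4.72, 8.48 and 5.89 CPM in replicates 4, 5, 6 and 8. White again spanned the widest range, with replicates 3 and 7 in the range of Green and replicates 1 and 6 at or above the level of most Control libraries.

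**Figure D1:**
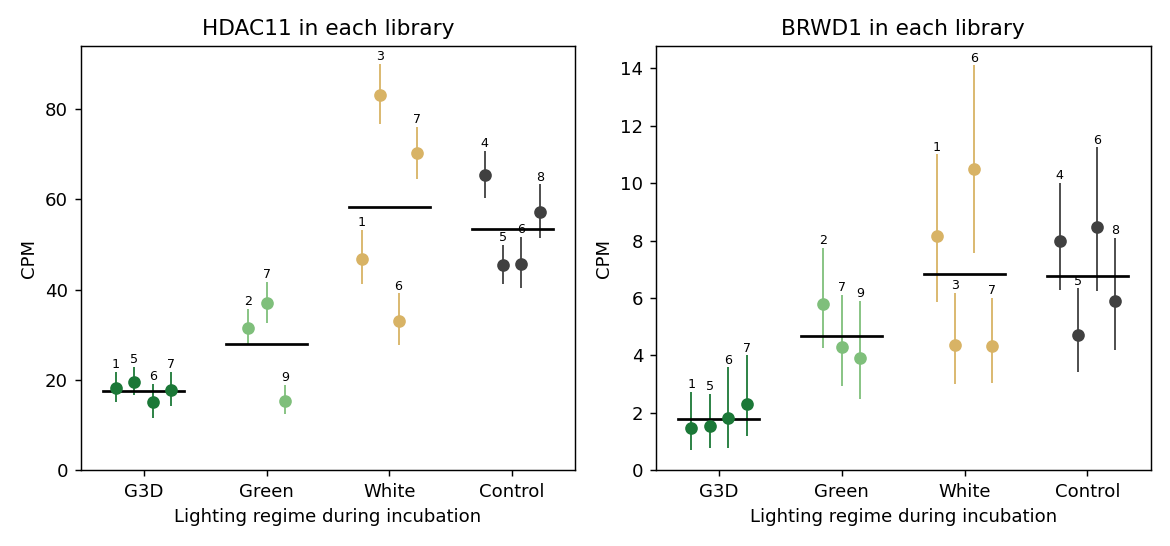
HDAC11 (left) and BRWD1 (right) in CPM on linear axes from 0, for G3D, Green, White and Control. Points are libraries with their replicate number, vertical bars are exact 95% Poisson intervals of the counts alone, and horizontal lines are group means; all G3D points lie below all Control points for both genes, and Green replicate 9 lies at the G3D level for HDAC11 only.

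The order of the group means was the same for the 2 genes, with G3D lowest, Green next, and White and Control highest and close to each other. Since both genes were chosen on G3D against Control, nothing is read from their shared place of G3D below Control. HDAC11 averaged 17.65 ± 1.92 CPM in G3D (SD, n = 4), 27.95 ± 11.2 CPM in Green (n = 3), 58.4 ± 22.5 CPM in White (n = 4) and 53.45 ± 9.63 CPM in Control (n = 4). BRWD1 averaged 1.78 ± 0.374 CPM in G3D, 4.68 ± 0.992 CPM in Green, 6.83 ± 3.02 CPM in White and 6.77 ± 1.77 CPM in Control. For HDAC11, neighbours in this order overlapped between G3D and Green and between White and Control, and the ranges of Green and Control did not overlap. For BRWD1, G3D was separate from Green, while Green, White and Control overlapped one another.

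Against Control, HDAC11 was 3.02-fold lower in G3D (edgeR log2 fold change -1.59, standard error (SE) 0.27). BRWD1 was 3.80-fold lower (log2 fold change -1.93, SE 0.37). In all 16 pairs of a G3D with a Control library, the G3D value was the lower one for each gene. Of the 10475 genes that passed the filter on low counts, 4.03% had G3D libraries all below the Control libraries, and 0.0668% had a padj under 0.05 with a lower level in G3D (edgeR's quasi-likelihood test, Benjamini-Hochberg adjusted). Since this contrast chose both genes, nothing is read from those shares. By size alone, 123 genes had a more negative log2 fold change than HDAC11 and 63 had a more negative one than BRWD1.

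The log2 fold changes against Control were smaller in size in Green than in G3D for both genes. Since both were chosen on G3D against Control, that choice favours a larger value there, and nothing is read from this order. The Control libraries used in the choice also enter the values of Green against Control. HDAC11 was 1.91-fold lower in Green than in Control (log2 fold change -0.93, SE 0.29), with all 12 pairs of libraries lower in Green. Non-overlapping ranges with Green below Control were found for 4.25% of genes, and 4.01% of genes had a more negative log2 fold change than HDAC11. BRWD1 was 1.44-fold lower in Green (log2 fold change -0.52, SE 0.37), with Green lower in 11 of 12 pairs and overlapping ranges. No gene had a padj under 0.05 between Green and Control in edgeR, where 375 genes had an unadjusted p under 0.05 in each direction, and DESeq2 called 24 genes.

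White light went with little average difference from darkness in either gene. HDAC11 had a log2 fold change of 0.13 (SE 0.26) between White and Control, and White was the lower of the libraries in 6 of 16 pairs. The BRWD1 log2 fold change was -0.01 (SE 0.33), with White lower in 9 of 16 pairs. The sign of the HDAC11 value rests on White replicate 3, without which it was -0.09. With standard errors of this size, a difference of the magnitude seen for BRWD1 between Green and Control could not be told from 0 here.

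G3D and Green differ both in when green light began and in how long it lasted, which cannot be told apart here. The ranges of G3D and Green were separate for BRWD1, and for HDAC11 they overlapped only through Green replicate 9. BRWD1 was 2.65-fold lower in G3D than in Green (log2 fold change -1.41, SE 0.40), with all 12 pairs lower in G3D. Ranges with G3D wholly below Green were found for 2.48% of genes, and 81 genes had a more negative log2 fold change. The choice of both genes rested in part on these G3D libraries, so nothing is read from that share or rank. HDAC11 was 1.58-fold lower in G3D (log2 fold change -0.66, SE 0.29), with G3D lower in 9 of 12 pairs. The other pairs held Green replicate 9, which all G3D libraries but replicate 6 exceeded. Without Green replicate 9 the HDAC11 log2 fold change was -0.95 (SE 0.27), and without Green replicate 7 it was -0.41 (SE 0.32). Whether the G3D and Green difference itself differs between the 2 genes was not tested. No gene had a padj under 0.05 in this comparison with edgeR, 208 genes had an unadjusted p under 0.05 with a lower level in G3D, and DESeq2 called 2 genes.

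Against White the G3D levels were again low. HDAC11 was 3.31-fold lower in G3D than in White (log2 fold change -1.73, SE 0.27) and BRWD1 was 3.79-fold lower (log2 fold change -1.92, SE 0.37), with all 16 pairs lower in G3D for each. Such separation with G3D below White was found for 5.43% of genes. The comparisons of G3D with White, Green and Control use the same 4 G3D libraries, so they are not separate evidence of a low level in G3D. Between Green and White, which share no library with G3D or Control, HDAC11 was 2.09-fold lower in Green (log2 fold change -1.06, SE 0.29), with 11 of 12 pairs lower, the exception being Green replicate 7 above White replicate 6. BRWD1 was 1.43-fold lower in Green than in White (log2 fold change -0.52, SE 0.37), with 10 of 12 pairs lower, and without White replicate 6 the log2 fold change was -0.25. In Green against White, 5.03% of genes had a more negative log2 fold change than HDAC11, and 16.4% had a more negative one than BRWD1.

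**Figure D2:**
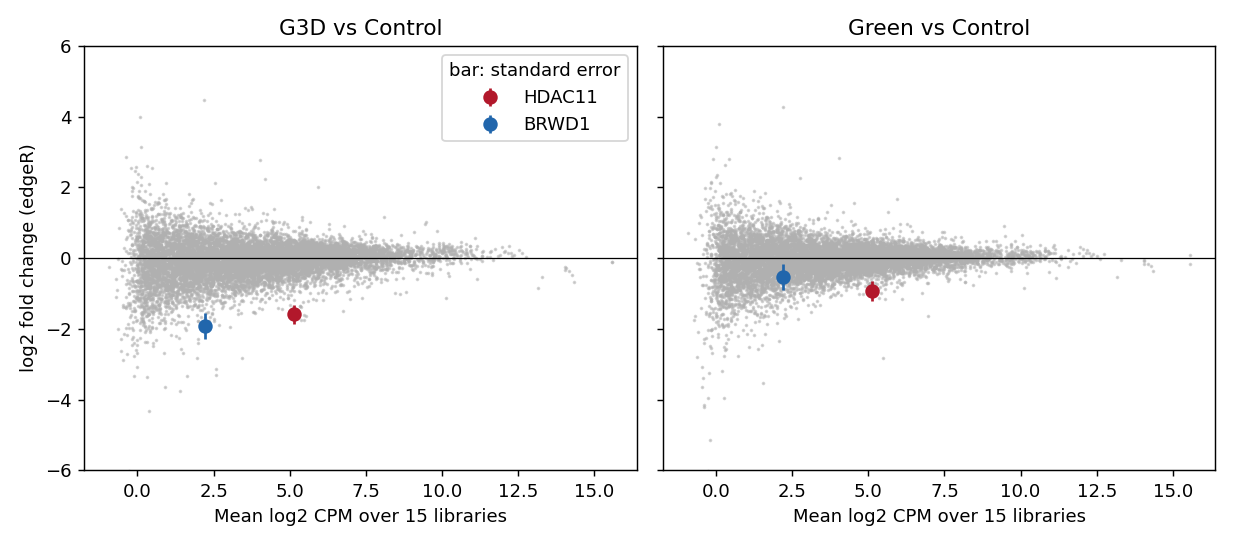
The log2 fold change of each of the 10475 genes tested (vertical axis, edgeR) against its mean log2 CPM over 15 libraries (horizontal axis), for G3D against Control on the left and Green against Control on the right. Grey points are genes, coloured points are HDAC11 and BRWD1 and bars are standard errors; for G3D the values are -1.59 for HDAC11 and -1.93 for BRWD1, and for Green -0.93 and -0.52.

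The precision behind these values differs between the genes. The summed HDAC11 counts were 436 in G3D, 606 in Green, 1570 in White and 1658 in Control, and those of BRWD1 were 42, 100, 153 and 204 in the same groups. Within G3D, both genes scattered about as much as counting error alone would give, with chi-square over its degrees of freedom at 1.10 for HDAC11 and 0.470 for BRWD1. Elsewhere this ratio was 27.6 in Green, 44.5 in White and 14.3 in Control for HDAC11. For BRWD1 it was 1.49 in Green, 8.01 in White and 3.70 in Control. The ratio grows with the counts, so it does not compare the scatter of the 2 genes. As a share of the mean CPM, the SD of HDAC11 was 40.2% in Green, 38.6% in White and 18.0% in Control. That of BRWD1 was 21.2% in Green, 44.15% in White and 26.1% in Control. Pooled over libraries, BRWD1 was at 1.73 CPM in G3D with an exact 95% Poisson interval of 1.25 to 2.34, against 6.64 CPM in Control with an interval of 5.76 to 7.62, and these intervals cover counting error only. A library of median depth needs about 10 counts to reach the expression level used in the filter, and BRWD1 was above that level in 3 of 4 G3D libraries and in all others. The biological coefficient of variation fitted by edgeR was 0.261 for HDAC11 and 0.313 for BRWD1, with a lower value in 51.5% and 62.8% of genes.

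HDAC11 and BRWD1 shared an order of groups, in part through the way they were chosen, but not an order of libraries within groups. Over the 15 libraries the Pearson correlation of their log2 CPM was 0.66 (Spearman 0.58), and over the 11 libraries without G3D it was 0.08. For deviations from the group means it was -0.40 (Spearman -0.39). An opposite order was seen in White, where replicates 3 and 7 had the high HDAC11 values with the low BRWD1 values. White replicate 6 had the lowest HDAC11 value with the highest BRWD1 value. The other groups did not share this order as a whole. Green replicate 9 and Control replicate 5 were the lowest of their group for both genes, while Control replicate 6 paired a low HDAC11 value with the highest BRWD1 value. These points share library depth and handling, and the correlations are given as a description.

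**Figure D3:**
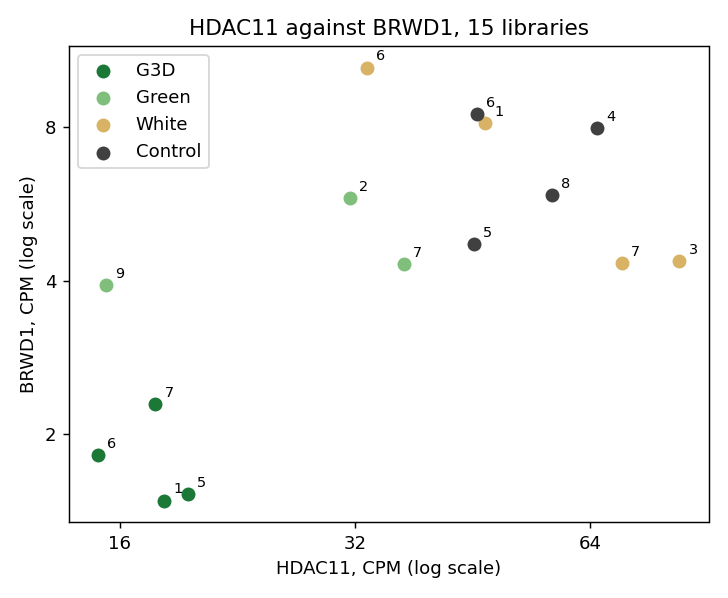
BRWD1 (vertical) against HDAC11 (horizontal) in CPM on log axes for the 15 libraries, coloured by group and marked with the replicate number. The G3D libraries form the low corner, at 15.0 to 19.6 CPM of HDAC11 and 1.48 to 2.29 CPM of BRWD1, and the White libraries run from high BRWD1 with low HDAC11 to low BRWD1 with high HDAC11.

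Part of the scatter ran with library depth, in opposite directions for the 2 genes. For deviations from group means, HDAC11 had a correlation of 0.68 (Spearman 0.60) with log2 total counts, and 2.23% of all genes had a higher one. The value for BRWD1 was -0.59 (Spearman -0.64), and 96.2% of genes had a higher one. G3D libraries ordered by depth were also ordered by HDAC11. G3D libraries were on the whole shallower than Control libraries, with a median of 6198347 against 7920824 total counts. With log2 total counts as a covariate, a setting added after these values were seen, G3D differed from Control on the log2 scale by -1.33 (SE 0.23) in HDAC11 and -2.18 (SE 0.37) in BRWD1, and the part of depth in these values was not otherwise tested.

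**Figure D4:**
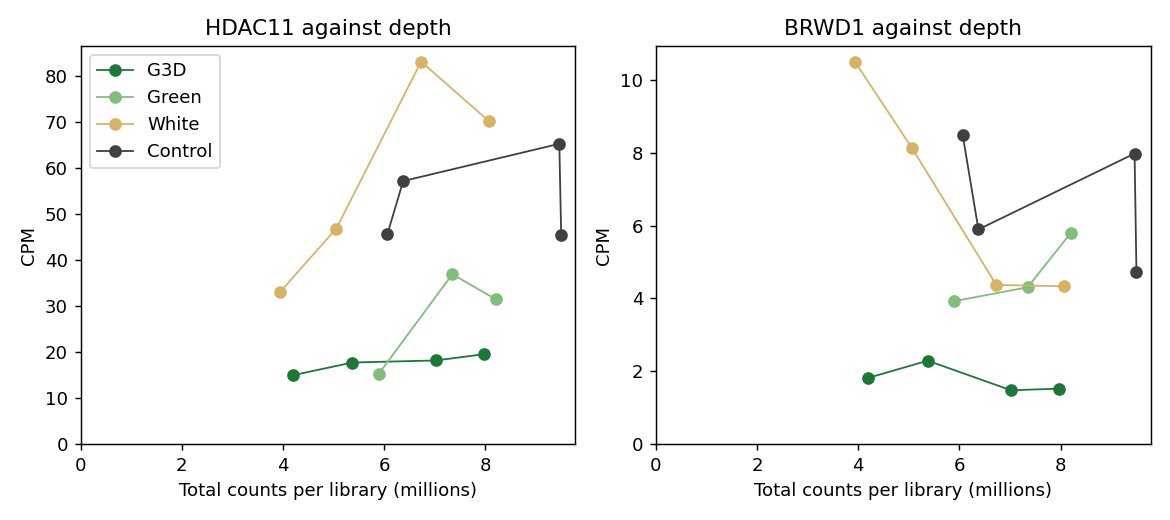
HDAC11 (left) and BRWD1 (right) in CPM against total counts per library, with lines joining the libraries of a group in order of depth. HDAC11 runs upward with depth within G3D, from 15.0 to 19.6 CPM, and BRWD1 runs downward within White, with its highest value of 10.5 CPM in the shallowest library. Within Green, BRWD1 runs upward, from 3.93 to 5.80 CPM.

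Of the cell type markers looked for, 5 of 68 could be matched to an identifier, because symbols were known only for 568 genes that the study listed as differing in these libraries (5.42% of the genes tested). They were 3 of 10 neuronal, 1 of 5 fibroblast and meningeal and 1 of 10 hypothalamic markers. None was matched for oligodendrocytes, astrocytes, microglia, endothelium, erythroid cells or pituitary. Within groups, HDAC11 deviated together with SNAP25, a protein of synaptic vesicle fusion (correlation 0.71), and opposite to STMN2, a protein of growing axons (-0.65), while for BRWD1 these correlations were -0.60 and 0.56. SNAP25 was at 498 to 838 CPM in G3D and 704 to 875 CPM in Control (log2 fold change -0.41, edgeR padj 0.264, and 0.0474 without G3D replicate 5), STMN2 had a log2 fold change of 0.34 (padj 0.315), and GAD2, which makes GABA, was at 6.60 to 12.1 CPM in G3D and 13.1 to 23.7 CPM in Control (log2 fold change -0.93, padj 0.154, and 0.0436 in DESeq2). COL1A2, a collagen of fibroblasts and meninges, was higher in G3D, at 52.9 to 91.3 CPM against 29.0 to 40.02 CPM in Control (log2 fold change 1.09, padj 0.0249), though its padj reached 0.0559 to 0.0666 without G3D replicate 7 or any of Control replicates 4, 5, 6 and 8. The hypothalamic peptide gene SST was present in every library and higher in G3D, at 1058 to 1373 CPM against 616 to 844 CPM in Control (padj 0.0249, and 0.0627 to 0.106 without G3D replicate 1 or 7 or Control replicate 6 or 8). Within groups, HDAC11 and BRWD1 had correlations of -0.25 and 0.16 with GAD2, 0.41 and -0.03 with COL1A2, and -0.57 and 0.34 with SST. The part of these markers in the HDAC11 and BRWD1 values was not tested, nor was that of depth in these correlations.

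Other genes that write, erase or read chromatin marks could be placed beside the pair for 5 further symbols, so that 7 of 128 listed symbols were followed. That left HDAC11 as the only one of 11 zinc-dependent deacetylases with an identifier, and BRWD1 as the only one of 9 genes of its family and of the CUL4 ubiquitin ligase. The study chose these identifiers on the same libraries, so their direction is not independent evidence. For the same reason nothing is read from the counts of these 5 genes given next. Between G3D and Control, 0 of the 5 had a padj under 0.05 in edgeR, where all genes tested gave 0.0955% in either direction. All 5 had an unadjusted p under 0.05, as did 6.81% of all genes in the higher and 8.82% in the lower direction, and all 5 had ranges that did not overlap, as did 3.72% of genes with G3D above Control and 4.03% with G3D below. DESeq2, which called 224 of all genes, gave a padj under 0.05 for 4 of the 5. Between G3D and White, 4 of the 5 had a padj under 0.05, against 4.17% of all genes.

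The identified genes of other deacetylases, deacetylase complexes and acetyltransferase complexes did not all lie in the same direction. SIRT2, an NAD-dependent deacetylase that like HDAC11 also removes fatty acyl groups in human cells, was at 212 ± 19.95 CPM in G3D, 189 ± 22.2 CPM in Green, 144 ± 10.8 CPM in White and 161 ± 15.4 CPM in Control. Its log2 fold change against Control was 0.39 in G3D (SE 0.11, padj 0.15), and against White it was higher in G3D by 0.56 (padj 0.017). ARID4A, a subunit of the SIN3 deacetylase complex, stood at 2.99 ± 1.32 CPM in G3D, 5.14 ± 0.986 CPM in Green, 7.25 ± 0.457 CPM in White and 7.24 ± 0.442 CPM in Control. Its log2 fold change against Control was -1.26 in G3D (SE 0.31, padj 0.123), and it was lower in G3D than in White (log2 fold change -1.26, padj 0.0281). KAT14, a subunit of the ATAC acetyltransferase complex, averaged 6.92 ± 2.19 CPM in G3D, 8.74 ± 0.789 CPM in Green, 16.3 ± 5.84 CPM in White and 12.7 ± 1.70 CPM in Control. White replicate 1 stood at 7.56 CPM and the other White libraries at 18.7 to 20.1 CPM. KAT14 had log2 fold changes of -0.89 in G3D against Control (padj 0.184) and -1.25 in G3D against White (padj 0.0244).

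BRPF1, a bromodomain protein like BRWD1 and a scaffold of MOZ acetyltransferase complexes, was at 37.9 ± 5.90 CPM in G3D, 28.3 ± 2.68 CPM in Green, 25.8 ± 4.65 CPM in White and 23.3 ± 6.94 CPM in Control (log2 fold change 0.69 in G3D against Control, padj 0.154). The G3D libraries of BRPF1 were all above the Control libraries, where those of BRWD1 were all below them. Such separation was found for 3.72% of genes with G3D above Control and 4.03% with G3D below. Both genes were picked on these same libraries, so nothing is read from this difference between them. DNMT3A, which methylates unmethylated DNA de novo, stood at 753 ± 157 CPM in G3D, 625 ± 35.9 CPM in Green, 452 ± 92.6 CPM in White and 450.0 ± 89.4 CPM in Control. Its log2 fold change was 0.74 in G3D against Control (SE 0.16, padj 0.0975, and 0.0298 without G3D replicate 5) and 0.74 against White (padj 0.0205).

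**Figure D5:**
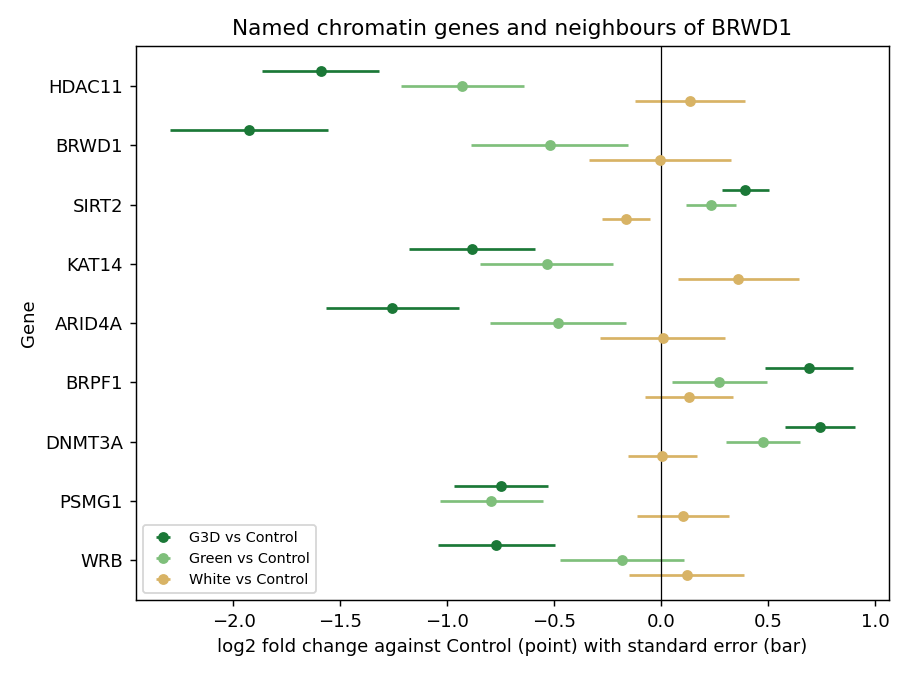
Log2 fold changes against Control (points) with standard errors (bars) for G3D, Green and White, for HDAC11, BRWD1, the 5 other chromatin genes and the BRWD1 neighbours PSMG1 and WRB. For G3D, HDAC11, BRWD1, KAT14, ARID4A, PSMG1 and WRB lie left of 0 and SIRT2, BRPF1 and DNMT3A right of 0, and the White values of HDAC11 and BRWD1 lie at 0.13 and -0.01.

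Genes around BRWD1 could be followed in part. In the RefSeq annotation of GRCg7b, PSMG1, a chaperone of proteasome assembly, is the protein-coding gene next to BRWD1 on chromosome 1, and it was the only one of the 8 nearest flanking genes of the pair with an identifier. PSMG1 was at 17.2, 16.8, 11.4 and 14.9 CPM in G3D, 17.4, 11.5 and 15.0 CPM in Green, 22.5, 31.3, 21.9 and 32.99 CPM in White and 23.7, 28.2, 17.5 and 32.3 CPM in Control, so that G3D and Green were both below every Control library. Such separation was found for 4.03% of genes with G3D below Control and 4.25% with Green below Control. PSMG1 has a symbol only because the study listed it as differing in these libraries, so nothing is read from its separation. Its log2 fold change was -0.75 in G3D (SE 0.22, padj 0.154) and -0.80 in Green (padj 0.478) against Control, and it was lower in G3D than in White (log2 fold change -0.85, padj 0.037). Between G3D and Green the ranges of PSMG1 overlapped (log2 fold change 0.05, SE 0.24), where those of BRWD1 did not. WRB, a receptor for insertion of tail-anchored proteins and the third protein-coding gene on the other side, was chosen after its values were seen and differed from Control by -0.77 on the log2 scale in G3D (padj 0.208), with overlapping ranges and G3D replicate 5 at 42.5 CPM, above the 26.9 to 28.4 CPM of the other G3D libraries. The spans of HDAC11 and NUP210 overlap in that annotation. Whether the counting used strand is not given in the sources used here, so reads from the shared stretch cannot be assigned with certainty.

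IFNAR1, a chain of the type I interferon receptor whose stability HDAC11 affects in human cells, was added after its values were seen. It averaged 5.14 ± 2.15 CPM in G3D, 4.48 ± 3.27 CPM in Green, 16.9 ± 4.62 CPM in White and 13.1 ± 3.59 CPM in Control. Its log2 fold change was -1.37 in G3D (padj 0.138) and -1.52 in Green (padj 0.368) against Control, and it was lower in G3D than in White (log2 fold change -1.74, padj 0.0205). IFNAR1 differed by 0.15 (SE 0.42) on the log2 scale between G3D and Green, beside -0.66 (SE 0.29) for HDAC11.

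Many genes ran with HDAC11 over the 15 libraries and few with BRWD1, whose counts were lower, and the part of the low counts was not tested. A Pearson correlation of log2 CPM above 0.8 with HDAC11 was found for 297 genes, and one below -0.8 for 135 genes, together 4.12% of genes tested. For BRWD1 there were 4 and 5 such genes, together 0.0859%. Among genes with a symbol, the most like HDAC11 were INPP5A (0.94), SBDS (0.93), MAPK6 (0.93), DYNLL2 (0.93) and SNAP29 (0.92). Their deviations from group means correlated with those of HDAC11 at 0.75 to 0.89. The same 15 libraries chose these genes, so nothing is read from those values. HDAC11 deviations also ran with log2 total counts (correlation 0.68), and the part of depth in this likeness was not tested. INPP5A, an inositol phosphate phosphatase, was at 23.1 ± 4.79 CPM in G3D, 32.96 ± 8.63 CPM in Green, 47.7 ± 13.8 CPM in White and 40.5 ± 4.70 CPM in Control. The genes running most opposite to HDAC11 were EIF3G (-0.93), SDOS (-0.92), SH3GL1 (-0.92), EFTUD2 (-0.91) and TIA1 (-0.91).

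For deviations from group means, 61 genes had a correlation above 0.8 and 38 one below -0.8 with HDAC11, and 17 and 14 genes with BRWD1. The genes with a symbol most like BRWD1 over the 15 libraries were ARID4A (0.80), IBTK (0.78), PFKP (0.77), GPATCH1 (0.76) and PRKAR1A (0.76), and the deviations of these 5 from their group means correlated with those of BRWD1 at 0.12 to 0.36. The IBTK mean was 0.432 ± 0.365 CPM in G3D, 2.83 ± 0.826 CPM in Green, 6.21 ± 4.85 CPM in White and 6.20 ± 5.83 CPM in Control. Its SD was thus nearly as large as its mean in White and Control. The G3D mean of IBTK lay below the expression level used in the filter, 1.49 CPM. The most opposite were IKBKAP (-0.81), EMX2 (-0.80), SNRPC (-0.79), ADCY9 (-0.79) and COL1A2 (-0.79). EMX2, a homeobox transcription factor of the forebrain, averaged 42.1 CPM in G3D, 34.4 CPM in Green, 24.5 CPM in White and 26.6 CPM in Control. All these genes have a symbol only because the study listed them as differing on these libraries, so genes without a symbol that are more like the pair are not named.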

How the data were processed

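Hypothalamic RNA of 15 chicks was grouped by the lighting regime in the labels. According to the study's methods, the authors trimmed reads with Cutadapt 3.4, mapped them with STAR onto gene 3′ ends of Galgal 6.0 (GRCg6a), collapsed reads with the same gene and UMI, and counted them with HTSeq-count. Raw whole-number counts per Ensembl gene were deposited. No trial or batch is labelled.

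Counts were fitted in R 4.3.3 with edgeR 4.0.16 (filterByExpr, TMM, robust quasi-likelihood) on all 15 libraries, and 6 comparisons were adjusted by Benjamini-Hochberg over 10475 genes at 0.05. Of 24356 genes, 17647 had a count. Log2 CPM used a prior count of 2. Counting intervals are exact Poisson at 95%. DESeq2 1.42.0, limma-voom (limma 3.58.1), other scalings and filters, only the 2 groups compared, a replicate block, leaving out each library, and log2 total counts as a covariate (added after seeing the data) were alternatives. The code was tested on simulated data.

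HDAC11, BRWD1 and all gene lists were chosen with earlier results of these data known. Named genes are list members identified through the study's supplementary table and passing the test in a comparison or leading by p in G3D against Control, flanking genes, and the 5 most and least alike genes with a symbol. WRB, IFNAR1, JMJD4, JMJD8 and some further chromatin genes were added after their values were seen. P-values set a difference between groups against the spread between these chicks. According to the study's methods, light-proof dividers separated the egg trays. The number of trays per regime is not stated there, so tray and regime cannot be told apart. Promoter motifs and W-linked counts were not analysed here, and some listed genes are not reported here.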

Additional observations from a re-analysis of the deposited data

Results flagged for a closer look

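In groups of 4 libraries, a library was singled out where its gap to the nearest other exceeded Dixon's 95% critical share of the group's range, which chance gives in about 1 in 20 groups; 5 of 63 groups tested had such a library, and none was a group of HDAC11 or BRWD1. KAT14 stood at 7.56 CPM in White replicate 1, against 18.7 to 20.1 CPM in the other White libraries. WRB stood at 42.5 CPM in G3D replicate 5, against 26.9 to 28.4 CPM in the other G3D libraries. ACTL6A, a subunit of BAF chromatin remodelling complexes, stood at 18.7 CPM in G3D replicate 5, against 8.89 to 9.36 CPM in the other G3D libraries, and at 30.0 CPM in Control replicate 4, against 18.6 to 20.5 CPM in the other Control libraries. JMJD4, a JmjC domain protein, stood at 3.36 CPM in Control replicate 6, against at least 9.77 CPM in the other Control libraries. In G3D replicate 5, HDAC11 had the highest value of its group, at 19.6 CPM, next to 18.2 CPM in replicate 1.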

How the results depend on the processing

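The log2 fold changes of HDAC11 and BRWD1 moved by less than 1 SD of log2 CPM within groups, pooled over the 4 groups, in all 282 alternatives. Leaving out a single library shifts a group mean by only a part of that group's SD. For those fits this rule could hardly fail, so nothing is concluded from it there and the ranges are given. For G3D against Control, HDAC11 lay between -1.67 and -1.47 without single libraries and between -1.61 and -1.33 under other settings, and BRWD1 between -2.07 and -1.81 and between -2.18 and -1.75. HDAC11 in Green against Control lay between -1.18 and -0.64 without single libraries. The sign of HDAC11 in White against Control turned without White replicate 3 (-0.09) and with the replicate block (-0.08), and that of BRWD1 was not fixed either (-0.36 to 0.17). Values that moved by over 1.5 times were those of HDAC11 in G3D against Green (-0.41 without Green replicate 7) and in Green against White (-0.70 with the replicate block), and of BRWD1 in Green against Control (-0.30 with the replicate block) and in Green against White (-0.31 in limma-voom, -0.22 with total counts as a covariate, -0.25 without White replicate 6), beside those of White against Control. BRWD1 could not be fitted when 10 counts were required in every library.

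Replicate numbers were not used as pairs in the main fit. Same-numbered libraries correlated at -0.10 to 0.12 after removing group means, and other pairs of libraries from different groups at -0.18 to 0.20. Whether same-numbered chicks shared a trial or tray cannot be told from these values. With the replicate block, which left 3 residual degrees of freedom, 3 genes passed in G3D against Control, 4 in White against Control, 115 in G3D against White and 3 in Green against White. The main counts were 10, 0, 437 and 23 in these comparisons, and 0 in Green against Control and G3D against Green. DESeq2 called 224 genes in G3D against Control, 24 in Green against Control, 1 in White against Control, 2 in G3D against Green, 1005 in G3D against White and 216 in Green against White. Limma-voom called 4 in G3D against Control. With all genes of at least 1 count, 30 passed in G3D against Control, 3 in Green against Control, 1 in White against Control and 67 in Green against White. With only the groups compared, 1 passed in Green against Control and 130 in G3D against White. With total counts as a covariate, 737 passed in G3D against White and 149 in Green against White.

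Without single libraries the counts ran from 1 to 221 in G3D against Control, 0 to 1 in Green against Control, 0 to 1 in White against Control, 0 to 1 in G3D against Green, 38 to 1028 in G3D against White and 2 to 40 in Green against White. The highest counts for G3D against Control and White came without G3D replicate 5, the lowest for G3D against Control without G3D replicate 7, Control replicate 6 or Control replicate 8. The cause was not tested. Ranked by Spearman, 3 of the 10 genes named as most or least like HDAC11 and 4 of those for BRWD1 were shared with the Pearson ranking. The correlation of HDAC11 with BRWD1 was -0.4 for deviations from group means, against 0.66 over all libraries. For G3D against Control, the 19 other named genes, leaving out those named only for likeness, kept their sign in all 454 alternatives. These genes have a symbol only because the study listed them as differing in these libraries, so nothing is read from the kept sign. A padj under 0.05 was gained in 13 alternatives and lost in 11, the losses all in COL1A2 and SST and the gains in DESeq2 or without G3D replicate 5. In the same comparison, the padj of DNMT3A ran from 0.00648 to 0.859, and that of ARID4A from 0.00902 to 0.812. Depth limits the precision of BRWD1, with 8 to 12 counts per G3D library.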

Other observations

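Genes outside the lists, named after their values were seen, lay on both sides of Control in G3D beside HDAC11 and BRWD1. They were genes of chromatin proteins and of the JmjC domain proteins JMJD4 and JMJD8, whose part in chromatin was not examined here. None of the 6 had a padj under 0.05 there in edgeR. All 6 had an unadjusted edgeR p under 0.05, as did 6.81% of all genes in the higher and 8.82% in the lower direction. Their symbols were known only because the study listed them as differing in these libraries, so nothing is read from these counts. DESeq2, which called 224 of all genes, gave a padj under 0.05 for 2 of the 6, JMJD4 and H2AFV. H2AFV, a variant of histone H2A, had a log2 fold change of 0.37 (padj 0.154) in G3D against Control and was higher in G3D than in White (log2 fold change 0.51, padj 0.0191). TAF10, a subunit of TFIID and SAGA, had 0.39 (padj 0.186) against Control and was higher in G3D than in White (log2 fold change 0.51, padj 0.0334). JMJD8 (0.33, padj 0.212) and BCL7A (0.70, padj 0.256) had positive log2 fold changes in G3D against Control. JMJD4 (-1.43, padj 0.154) and ACTL6A (-0.94, padj 0.163) had negative ones. Without G3D replicate 5 the padj in G3D against Control was 0.0414 for H2AFV and 0.0344 for ACTL6A.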
